A study of Mus musculus with 40 samples.

Results

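Lysosomes are acidic compartments in which hydrolases take apart proteins, glycans and lipids. A vacuolar proton pump, built from a soluble V1 sector that splits ATP and a membrane V0 sector that carries protons, keeps them acidic. In mast cells the secretory granules are related to lysosomes: they share hydrolases and membrane proteins with them, and release of beta-hexosaminidase is a usual readout of degranulation. TFEB and TFE3 are transcription factors known to bind short E-box motifs in the promoters of many lysosomal genes.

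Here 59 such genes were followed through a mouse RNA-seq series, of 23304 distinct gene symbols in its table. Of these, 36 came from a list and 23 were the symbols that begin with Atp6v0 or Atp6v1. All 36 listed genes were in the table, and no member stood on more than 1 row. They fell into 13 genes of the V1 sector, 10 of the V0 sector, 7 proteases, 10 glycosidases, 5 sulfatases, 6 lipid hydrolases or their cofactors, 6 membrane proteins and 2 transcription factors. The proteases, glycosidases, sulfatases and lipid group are together called hydrolases below, 28 genes in all.

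The series asked, per its title, how nonpeptidergic sensory neurons that express MrgprD act on skin through glutamate and mast cells. It held 40 libraries in 10 groups of 4. DTR mice carried Gt(ROSA)26Sortm1(HBEGF)Awai, a Cre-dependent diphtheria toxin receptor from a C57BL/6 line, crossed to Mrgprdtm1.1(cre)And, a B6.129S1(Cg) line that makes Cre under the Mrgprd gene. Toxin (DT, injected IP) given for 3 to 4 weeks kills cells that carry the receptor. Cre mice were the Mrgprdtm1.1(cre)And line alone. The protocol text gives toxin to both lines, while the labels of the Cre samples name only the solvent, acetone and olive oil (4:1), that the DTR labels also name. DTR and Cre mice gave mast cells sorted from skin, and ear skin that the labels call epidermal and the design text whole. A second pair of skin groups came from C57BL/6J ears treated with 50 mM β-alanine (β-ala), an agonist of MrgprD, or with PBS once a day for 2 days. Mast cells grown from the peritoneum of C57BL/6J mice gave the last 4 groups: 4 mM glutamate or vehicle for 6 h in glutamate-free Tyrode's buffer, and 50 uM NS102, a glutamate receptor antagonist, or vehicle for 48 h. Ages were not given, and no label says whether libraries of a group came from separate animals or cultures, so p-values measure the spread between these libraries, which may be technical.

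The table held FPKM, fragments per kilobase of transcript scaled to the fragments mapped, so levels can be compared between genes per length. Summed FPKM per library ran over 117574 to 508485, and the number of reads behind a value is unknown. Pearson's r of log2(FPKM + 1) between libraries of a group was 0.9392 to 0.9987. It was lowest among Cre sorted libraries, at 0.9392 to 0.9799, and at least 0.982 in every other group. The 4 DTR sorted libraries stood apart as 2 pairs: replicates 1 and 2 summed to 191722 and 185388 FPKM, and replicates 3 and 4 to 117574 and 126017 FPKM. Sorted results are therefore also given with either pair standing for the group. The neurons' cell bodies were not sampled, and Mrgprd was at most 0.1583 FPKM in the 40 libraries, so the ablation itself was not checked here.

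The mast cell label held in sorted and cultured libraries, where the mast cell protease genes Cma1 and Cpa3 were high. Cma1 had 9454, 8963, 5791 and 5961 FPKM in DTR sorted cells, against 3134, 3994, 3294 and 5094 FPKM in Cre sorted cells. In cultured cells Cma1 ranged over 11846 to 21412 FPKM. Cre sorted libraries also carried basophil genes: Mcpt8 had 2.29, 2.77, 1.8 and 1.58 FPKM in DTR sorted cells, against 339.5, 467, 258 and 308 FPKM in Cre sorted cells. The stem cell factor receptor Kit had 232, 241, 161 and 148 FPKM in DTR sorted cells, against 40.7, 49.2, 45.7 and 54.5 FPKM in Cre sorted cells. These markers move with the sorted comparison, and their part in it was not tested. In the test described below, 5 of 10 mast cell markers were higher in DTR sorted cells, 2 lower and 3 did not pass. Of 5 basophil markers, 0 were higher, 4 lower and 1 did not pass. In bulk libraries, fewer cells of a type and less RNA per cell cannot be told apart.

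Several isoform genes of the pump differed in level between mast cells and skin. In the V1 sector, Atp6v1c2, an isoform of the C subunit known from epithelia, was 0 to 0.0357 FPKM in Cre sorted cells and 31.9 to 34.8 FPKM in Cre skin. It was listed at 0 in every DTR sorted, glutamate, NS102 and 48 h vehicle library. Its partner gene Atp6v1c1, the widely used isoform, was present in both, with 12.8 ± 0.630 FPKM in Cre sorted cells and 17.9 ± 0.841 FPKM in Cre skin (SD, n = 4 each, as for every ± of a level below). In the V0 sector the a subunit lines the proton path and decides where the pump sits. Its isoform gene Atp6v0a4 was 0 to 0.0319 FPKM in Cre sorted cells and 11.7 to 12.3 FPKM in Cre skin, while Atp6v0a1 and Atp6v0a2 were found in all 10 groups. Atp6v0e2 was 0 to 0.0282 FPKM in Cre sorted cells and 7.36 to 9.29 FPKM in Cre skin, while its relative Atp6v0e was among the 3 most abundant pump genes in every group. The opposite case was Atp6v0d2, an isoform of the d subunit known from osteoclasts and macrophages.

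Atp6v0d2 had 5.62, 3.43, 2.32 and 1.98 FPKM in Cre sorted cells, against 0.432, 0.346, 0.451 and 0.340 FPKM in Cre skin. In cultured cells it averaged 13.9 ± 0.793 FPKM at 48 h in vehicle and 78.9 ± 2.51 FPKM at 6 h in vehicle. The other d isoform, Atp6v0d1, did not have this pattern, with 23.2 FPKM in Cre sorted cells and 54.2 FPKM in Cre skin. Atp6v1e2, Atp6v1g3 and Atp6v1b1 were under 1 FPKM in every group mean. Atp6v0c-ps2, a pseudogene, overlaps Atp6v0c in the table's coordinates, so reads of the pair cannot be told apart and its level, 19.4 FPKM in Cre sorted cells and 0.258 FPKM in Cre skin, is uncertain.

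**Figure D1:**
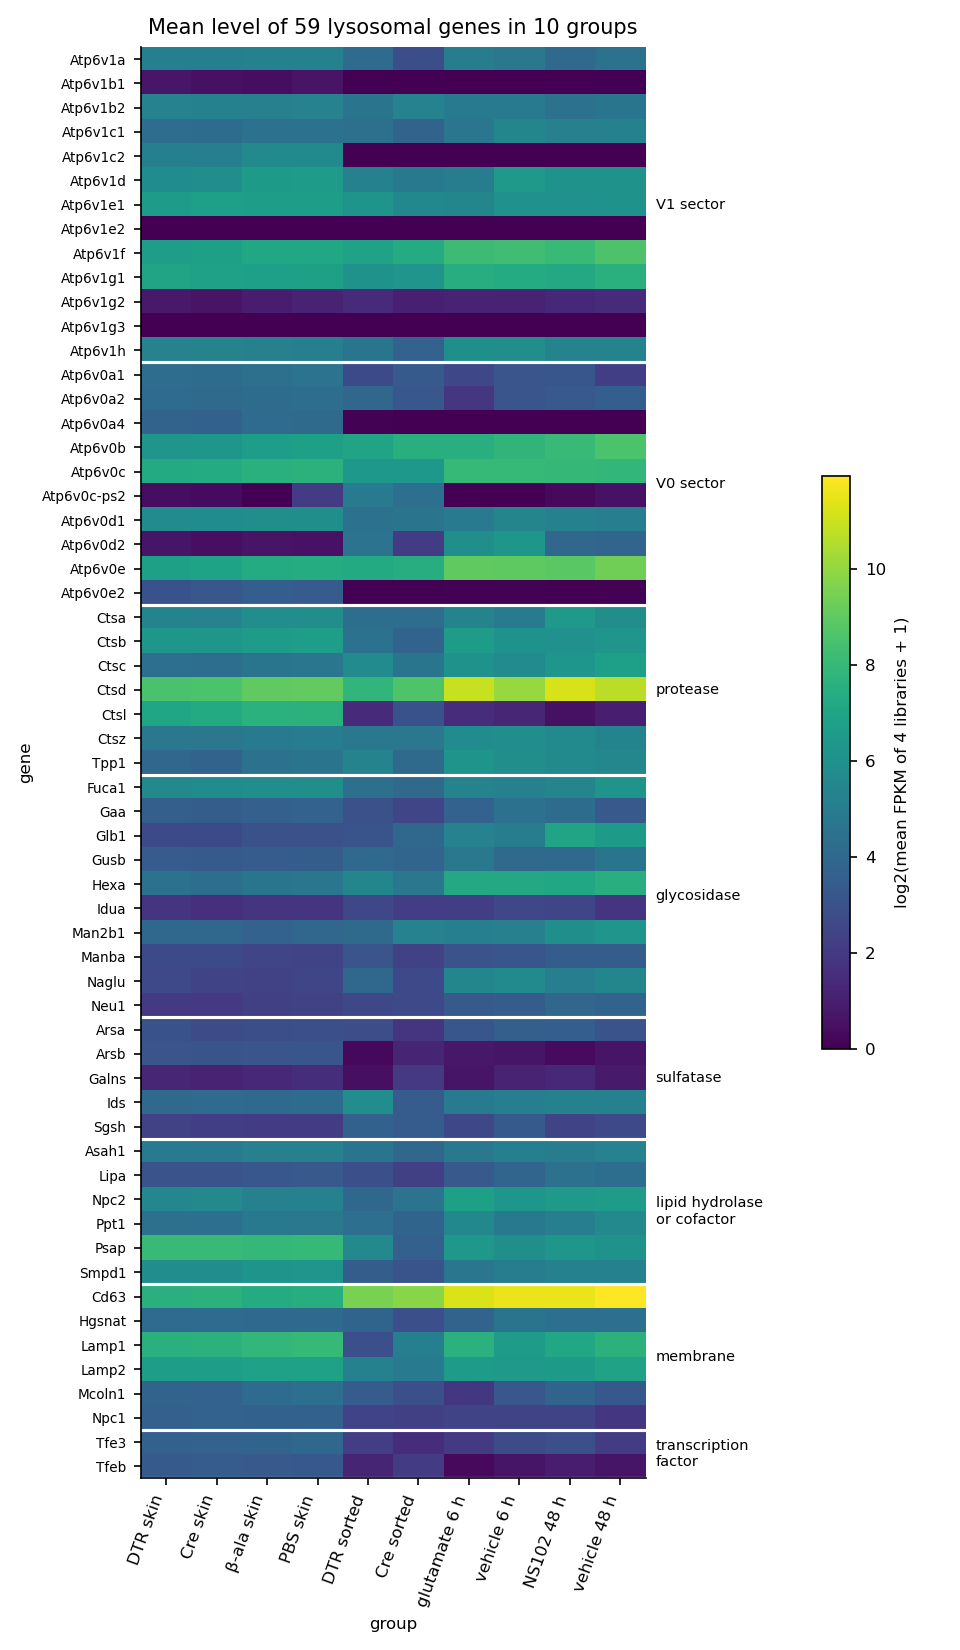
Mean level of each of the 59 genes (rows, by class) in the 10 groups (columns), as log2 of the mean FPKM of 4 libraries plus 1; brighter is higher. Atp6v1c2, Atp6v0a4, Atp6v0e2 and Ctsl are brighter in the skin columns than in the mast cell columns, Atp6v0d2 is the reverse, and Cd63 and Ctsd are the brightest rows in cultured cells.

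Among hydrolases the level was set by few genes. Ctsd, the aspartic protease cathepsin D, had the highest mean of the 28 in each of the 10 groups. It averaged 395 ± 72.9 FPKM in Cre sorted cells, 1667 ± 86.7 FPKM in 48 h vehicle cells and 369 ± 8.31 FPKM in Cre skin. Ctsl, a cysteine protease known for its role in hair follicle cycling and keratinocyte turnover, averaged 1.01 ± 0.366 FPKM in 48 h vehicle cells, against 158 ± 8.85 FPKM in Cre skin. Psap, the precursor of the saposins that help degrade sphingolipids, averaged 11.5 ± 5.33 FPKM in Cre sorted cells, against 261 ± 17.9 FPKM in Cre skin. Hexa, the alpha chain of beta-hexosaminidase, averaged 25.4 ± 4.17 FPKM in Cre sorted cells, 180.1 ± 10.1 FPKM in 48 h vehicle cells and 19.1 ± 1.76 FPKM in Cre skin.

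Of the membrane genes, Cd63 was higher in mast cells than in skin, and Lamp1 was low in sorted cells. Cd63, a tetraspanin of granule and lysosome membranes that marks mast cell and basophil degranulation when it reaches the surface, had 805, 1036, 858 and 897 FPKM in Cre sorted cells, against 194, 179.6, 213 and 211 FPKM in Cre skin. It averaged 3901 ± 213 FPKM in 48 h vehicle cells. Lamp1, a main glycoprotein of the lysosome membrane, had 30.3, 30.1, 34.3 and 42.5 FPKM in Cre sorted cells, against 195, 198, 196 and 210.4 FPKM in Cre skin. Tfeb averaged 3.35 ± 1.51 FPKM in Cre sorted cells and 10.2 ± 0.742 FPKM in Cre skin. Tfe3 averaged 1.96 ± 0.513 FPKM in Cre sorted cells and 12.3 ± 0.723 FPKM in Cre skin.

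**Figure D2:**
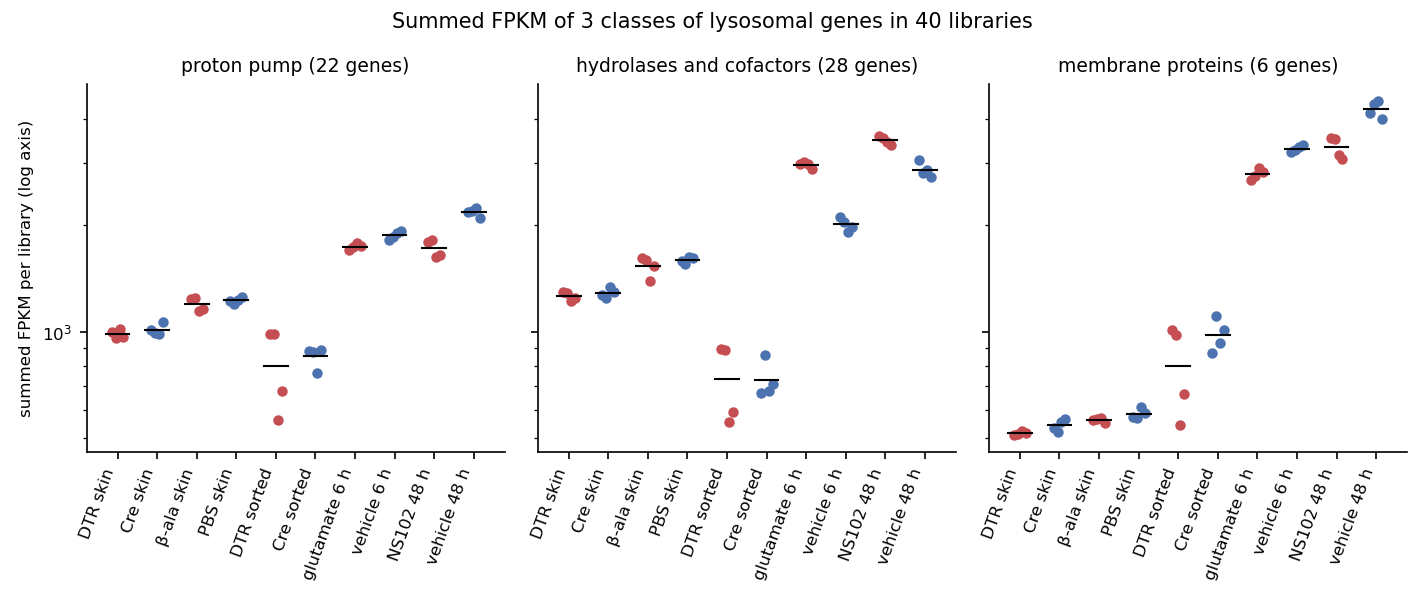
Summed FPKM per library (log axis) of the proton pump without Atp6v0c-ps2, the hydrolases and the membrane proteins in the 10 groups; points are libraries, bars are means of 4, red is the treated or DTR group and blue the control beside it. All 3 sums are highest in cultured cells, the DTR sorted libraries split into 2 pairs, and the hydrolase sum, most of which is Ctsd in the cultured cells, is higher in glutamate and NS102 libraries than in their vehicles.

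Summed over each class, pump genes other than the pseudogene had 851 ± 59.4 FPKM in Cre sorted cells, 2177 ± 56.8 FPKM in 48 h vehicle cells and 1013 ± 35.7 FPKM in Cre skin. The hydrolases summed to 729.8 ± 87.3, 2869.6 ± 137 and 1286 ± 37.7 FPKM in these 3 groups. Membrane genes summed to 979 ± 103 FPKM in Cre sorted cells, 4252 ± 229.6 FPKM in 48 h vehicle cells and 544 ± 19.9 FPKM in Cre skin, and most of it was Cd63 in the mast cells.

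Sorted cells were also set against skin gene by gene. Each test below was a two-sided limma test on log2(FPKM + 1) over every gene that reached 1 FPKM in 4 or more libraries of the comparison, with Benjamini-Hochberg adjusted p under 0.05 over all of them as the threshold; log2 changes carry their standard error and understate low genes. In Cre sorted cells against Cre skin, 55 members were tested, 15 were higher and 35 lower. Of all 12693 genes tested, 9.85% were higher and 80.0% lower, and the median gene changed by -1.42 on the log2 scale. After centring each library on its median the members split into 36 higher and 10 lower, beside 5128 higher and 4152 lower of all genes. Calls were the same under both scalings for 15 higher and 10 lower members, and for 1250 higher and 4152 lower of all genes. The largest rises of the 15, apart from the pseudogene and Atp6v0d2, were in Cd63 (2.16 ± 0.10, adjusted p = 5.79e-08, 3.58 relative to the median gene), Glb1, the lysosomal beta-galactosidase (1.27, 2.69 relative), and Man2b1, an alpha-mannosidase (1.26, 2.68 relative). Sgsh, which removes sulfate from heparan sulfate, and Atp6v0b, a proteolipid of the V0 ring, followed at 2.63 and 2.57 relative. The 10 lower members were Atp6v1c2, Ctsl, Psap, Atp6v0a4, Atp6v0e2, Smpd1, Ctsb, Lamp1, Atp6v1a and Tfe3. Of these, Atp6v1c2, Atp6v0a4 and Atp6v0e2 were under 1 FPKM in every Cre sorted library and passed the filter through skin alone. Atp6v0d2, among the 15 higher, was under 1 FPKM in every Cre skin library. The direction of these calls was set by the filter and is not a test result. The pseudogene, also among the 15, averaged under 1 FPKM in Cre skin, and its call is not read as a test result either.

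Per library, Glb1 had 17.1, 18.1, 10.8 and 13 FPKM in Cre sorted cells, against 5.83, 5.08, 5.37 and 5.35 FPKM in Cre skin. Man2b1 had 46.5, 43.9, 28.5 and 33.3 FPKM in Cre sorted cells, against 14.2, 14.1, 17.2 and 14.5 FPKM in Cre skin. Neither gene's groups overlapped. Most genes named here and below were picked for a large called change, so separate groups describe their values and add no support. The share of all genes with separate groups was not computed. Smpd1, acid sphingomyelinase, had 6.39, 7.35, 9.04 and 7.78 FPKM in Cre sorted cells, against 55.1, 58.4, 55.7 and 57.3 FPKM in Cre skin, and Psap had 6.84, 8.28, 18.8 and 11.9 FPKM in Cre sorted cells, against 268, 246, 283 and 248 FPKM in Cre skin. Here too the groups did not overlap, with sorted cells below.

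Set against 48 h vehicle cells, Cre sorted cells had lower levels of most members: of 53 tested, 7 were higher and 40 lower, against 21.5% higher and 52.4% lower of 8740 genes, with a median gene at -0.51. Centring left 10 higher and 38 lower members, beside 2507 higher and 3650 lower of all genes. The members lowest in sorted cells relative to the median gene were Naglu, which degrades heparan sulfate (-2.38), Hexa (-2.27), Glb1 (-2.06), Lamp1 (-2.04), Psap (-2.04) and Ctsb (-1.94). Hexa had 23.3, 31, 21.5 and 26 FPKM in Cre sorted cells, against 185, 188, 182 and 165 FPKM in 48 h vehicle cells, and Naglu had 3.72, 6.16, 6.41 and 4.22 FPKM in Cre sorted cells, against 47.5, 43.9, 43.6 and 40.8 FPKM in 48 h vehicle cells. Higher in sorted cells were Atp6v0a1 (1.67 relative), Sgsh (1.33) and Atp6v1b2 (1.18). Tfeb (1.89), Galns, Arsb and the pseudogene were also called higher, but did not reach the filter from the 48 h vehicle libraries alone. Tfeb was under 1 FPKM in every 48 h vehicle library, so its direction was set by the filter and is not a test result. Calls of Galns, Arsb and the pseudogene, which needed the sorted libraries to pass the filter, are not read as test results either. Tissue of origin, sorting and culture differ at once in this comparison and cannot be told apart.

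Promoters of the genes were searched for the E-box core CACGTG, because TFEB and TFE3 bind E-boxes of this kind and both genes are members. RefSeq windows of 300 bases (GRCm38.p6, 250 before to 50 after the start) were found for 47 of the 59 members. The motif reads the same on both strands. It was present in 14 of these 47 genes, or 29.8%, against 8.09% of the 27025 genes with a window. By class it was in 4 of 16 pump genes, 8 of 25 hydrolase genes, 2 of 4 membrane genes and in neither of the transcription factor genes. The longer word TCACGTGA, which contains the core, was in 6 of 47 members and 1.12% of all genes. The 14 genes were Lamp1, Mcoln1, Ctsd, Ctsa, Ctsl, Gaa, Glb1, Naglu, Arsa, Sgsh, Atp6v0b, Atp6v0d1, Atp6v0e and Atp6v1a.

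Shown here are windows of 4 of them whose levels changed in the cultured cells described further on, as the DNA strand of the gene from 5′ to 3′ with each CACGTG in capitals. Lamp1 (chr8:13158911-13159210, plus strand) holds 4 copies, the first centred 58 bases and the last 12 bases before the start. Ctsd (chr7:142387778-142388077, minus strand) holds 2, centred 242 and 95 bases before the start. Mcoln1 (chr8:3500269-3500568, plus strand), the gene of a calcium channel of the lysosome membrane, holds 2, centred 68 and 42 bases before the start. Glb1 (chr9:114400828-114401127, plus strand) holds 1, centred 45 bases before the start.
Lamp1: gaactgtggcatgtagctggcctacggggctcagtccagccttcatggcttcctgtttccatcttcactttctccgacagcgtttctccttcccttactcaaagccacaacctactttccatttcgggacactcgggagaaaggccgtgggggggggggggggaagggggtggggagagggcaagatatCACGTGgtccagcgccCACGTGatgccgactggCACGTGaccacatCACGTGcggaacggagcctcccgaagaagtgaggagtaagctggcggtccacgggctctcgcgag
Ctsd: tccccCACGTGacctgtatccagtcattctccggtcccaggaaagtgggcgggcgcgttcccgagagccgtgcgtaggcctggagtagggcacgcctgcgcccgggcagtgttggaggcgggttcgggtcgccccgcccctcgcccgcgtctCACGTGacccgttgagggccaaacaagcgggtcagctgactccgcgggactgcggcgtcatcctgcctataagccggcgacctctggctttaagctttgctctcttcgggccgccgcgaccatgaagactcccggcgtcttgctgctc
Mcoln1: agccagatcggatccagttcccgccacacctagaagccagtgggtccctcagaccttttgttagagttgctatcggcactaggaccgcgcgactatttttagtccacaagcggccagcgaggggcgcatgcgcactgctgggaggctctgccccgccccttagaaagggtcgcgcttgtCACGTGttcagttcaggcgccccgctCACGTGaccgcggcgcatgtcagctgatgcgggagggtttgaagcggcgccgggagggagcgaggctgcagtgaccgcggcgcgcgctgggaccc
Glb1: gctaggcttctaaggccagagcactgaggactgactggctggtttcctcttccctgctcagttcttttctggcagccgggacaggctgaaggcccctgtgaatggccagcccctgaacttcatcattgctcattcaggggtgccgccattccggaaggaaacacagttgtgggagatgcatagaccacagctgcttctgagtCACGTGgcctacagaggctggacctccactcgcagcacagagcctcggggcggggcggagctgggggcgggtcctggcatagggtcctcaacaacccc
A match is a description of the letters and was not tested as a binding site.

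Directions were mixed among the genes with the core and among those without it. With glutamate, 5 of the 14 genes with it were higher and 7 lower. Of the 25 tested genes with a window that lacks it 7 were higher and 8 lower, beside 16.9% higher and 62.4% lower of all genes. With NS102, of 13 tested genes with the core 7 were higher and 5 lower. Of 25 without it 7 were higher and 10 lower, beside 30.8% higher and 39.7% lower of all genes. Lamp1 and Mcoln1, both with the core, moved in opposite directions in each of these comparisons, as given below.

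In mast cells sorted from DTR skin against Cre skin, 53 members were tested, 17 were higher and 9 lower. Over all 8871 genes tested, 18.9% were higher and 16.9% lower, so the share of members called higher was above, and the share called lower was near, that of all genes. The median gene changed by 0.13 on the log2 scale, and the largest changes are also given relative to it. Centring on it gave 23 higher and 13 lower members, beside 2313 higher and 1903 lower of all genes. Quantile normalization gave 31 higher and 9 lower members, and counts over all genes by direction were not made under it. Among the 28 hydrolases 11 were higher and 5 lower, among the 17 tested pump genes 5 were higher and 2 lower, and among the 6 membrane genes 1 was higher and 1 lower.

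The largest rise was in Ids, iduronate 2-sulfatase, which removes sulfate from dermatan and heparan sulfate. Ids had 60.4, 67.1, 48.8 and 48.5 FPKM in DTR sorted cells, against 8.74, 7.75, 11.9 and 10.8 FPKM in Cre sorted cells (2.41 ± 0.23, adjusted p = 4.96e-08, 2.27 relative). Naglu, which acts later on heparan sulfate, had 18, 19.5, 11.5 and 11.6 FPKM in DTR sorted cells, against 3.72, 6.16, 6.41 and 4.22 FPKM in Cre sorted cells (1.39 ± 0.25, adjusted p = 2.27e-04). In both genes the lowest DTR library lay above the highest Cre library. Hgsnat, the membrane acetyltransferase of the same pathway, averaged 13.6 ± 3.51 FPKM in DTR sorted cells, against 6.6 ± 2.65 FPKM in Cre sorted cells (0.98 ± 0.28, adjusted p = 0.00945). Sgsh and Idua, further enzymes of heparan sulfate breakdown, had log2 changes of 0.27 and 0.37 and did not pass.

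Psap had 62.2, 55.9, 32.1 and 40.2 FPKM in DTR sorted cells, against 6.84, 8.28, 18.8 and 11.9 FPKM in Cre sorted cells (2.01 ± 0.29, adjusted p = 1.47e-05, 1.88 relative). Tpp1, a protease that trims tripeptides, had 46.5, 49.6, 29.4 and 33.4 FPKM in DTR sorted cells, against 17.7, 18, 17.3 and 12.5 FPKM in Cre sorted cells (1.21 ± 0.24, adjusted p = 4.52e-04). Cre replicate 4 was the lowest Tpp1 library, and again the groups did not overlap. Ctsc, the dipeptidyl peptidase that activates granule serine proteases such as chymase, averaged 53.3 ± 13.7 FPKM in DTR sorted cells, against 24 ± 7.5 FPKM in Cre sorted cells (1.13 ± 0.26, adjusted p = 0.00184). Arsa, Manba, Asah1, Lipa, Hexa and Ctsb also passed as higher, with log2 changes of 0.63 to 1.13. The calls of Hexa, Asah1, Lipa, Arsa, Manba, Hgsnat, Ctsc and Ctsb were lost when replicates 3 and 4 alone stood for the DTR group, with the highest adjusted p at 0.256 for Arsa.

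In the pump, Atp6v0d2 had 24.3, 40.2, 10.4 and 15.4 FPKM in DTR sorted cells, against 5.62, 3.43, 2.32 and 1.98 FPKM in Cre sorted cells (2.35 ± 0.34, adjusted p = 1.60e-05, 2.21 relative). Atp6v1a, the catalytic A subunit, had 21.6, 20.2, 13.3 and 13.7 FPKM in DTR sorted cells, against 5.85, 5.12, 8.18 and 5.87 FPKM in Cre sorted cells (1.31 ± 0.24, adjusted p = 2.46e-04). Each gene's groups were separate. Atp6v1b2, the B subunit that alternates with A in the ring, went the other way: 27.7, 28.1, 17.6 and 18.5 FPKM in DTR sorted cells, against 41.4, 44.6, 35.7 and 32.3 FPKM in Cre sorted cells (-0.74 ± 0.23, adjusted p = 0.0168). The a subunits also split, Atp6v0a1 at 6.41, 5.32, 4.54 and 5.0 FPKM in DTR sorted cells, against 9.77, 11.1, 7.58 and 9.66 FPKM in Cre sorted cells (-0.73 ± 0.23, adjusted p = 0.0152), and Atp6v0a2 higher (0.78 ± 0.29, adjusted p = 0.0427), a call lost with DTR replicates 3 and 4 alone (adjusted p = 0.434). Atp6v1h and Atp6v1c1, of the stalk and regulatory parts of V1, were higher as well, at 0.87 and 0.61.

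Lamp1 fell most. It had 9.08, 7.18, 4.47 and 5.02 FPKM in DTR sorted cells, against 30.3, 30.1, 34.3 and 42.5 FPKM in Cre sorted cells (-2.28 ± 0.24, adjusted p = 3.37e-07, -2.41 relative). Lamp2, its close relative, had 36.3 ± 7.42 FPKM in DTR sorted cells and 28.6 ± 12.9 FPKM in Cre sorted cells and did not pass (0.40 ± 0.27, adjusted p = 0.256). Man2b1 had 18.9, 20.3, 13.3 and 13.9 FPKM in DTR sorted cells, against 46.5, 43.9, 28.5 and 33.3 FPKM in Cre sorted cells (-1.15 ± 0.24, adjusted p = 7.77e-04), and Glb1 had 7.8, 10.5, 5.49 and 6.11 FPKM in DTR sorted cells, against 17.1, 18.1, 10.8 and 13 FPKM in Cre sorted cells (-0.91 ± 0.25, adjusted p = 0.00741). Both genes' groups were separate, as was Lamp1. Galns and Arsb, sulfatases at low levels, were lower too, at -1.46 and -0.96. Over the alternatives the change ran from -2.61 to -0.546 for Galns and from -2.36 to -0.284 for Arsb. Both are counted among the 9 lower members. At levels this near the filter of 1 FPKM the filter can set the direction, so neither call is read as a test result.

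Ctsd had 289.5, 281, 179 and 179.7 FPKM in DTR sorted cells, against 354, 504, 363 and 359.7 FPKM in Cre sorted cells (-0.79 ± 0.25, adjusted p = 0.0168). Its call was lost in 5 of 19 alternatives: with no filter, without DTR replicate 4, without Cre replicate 2, with DTR replicates 1 and 2 as the group, and under quantile normalization, where the change was 0.06 and the adjusted p 0.688. The other 4 had adjusted p of 0.0627 to 0.0835. Tfeb had 1.64, 1.45, 1.16 and 1.2 FPKM in DTR sorted cells, against 1.75, 3.04, 3.23 and 5.39 FPKM in Cre sorted cells (-0.82 ± 0.25, adjusted p = 0.0159). Tfe3 had 4.41, 4.54, 2.35 and 2.94 FPKM in DTR sorted cells, against 2.58, 1.68, 1.42 and 2.15 FPKM in Cre sorted cells, and did not pass (0.61 ± 0.25, adjusted p = 0.0590). Tfe3 passed as higher after centring. Hexa had 54.3, 53.8, 30.9 and 34.8 FPKM in DTR sorted cells, against 23.3, 31, 21.5 and 26 FPKM in Cre sorted cells (0.72 ± 0.24, adjusted p = 0.0244). Cd63 had 926, 892, 492 and 609 FPKM in DTR sorted cells, against 805, 1036, 858 and 897 FPKM in Cre sorted cells, and its groups overlapped (-0.34 ± 0.26, adjusted p = 0.313).

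**Figure D3:**
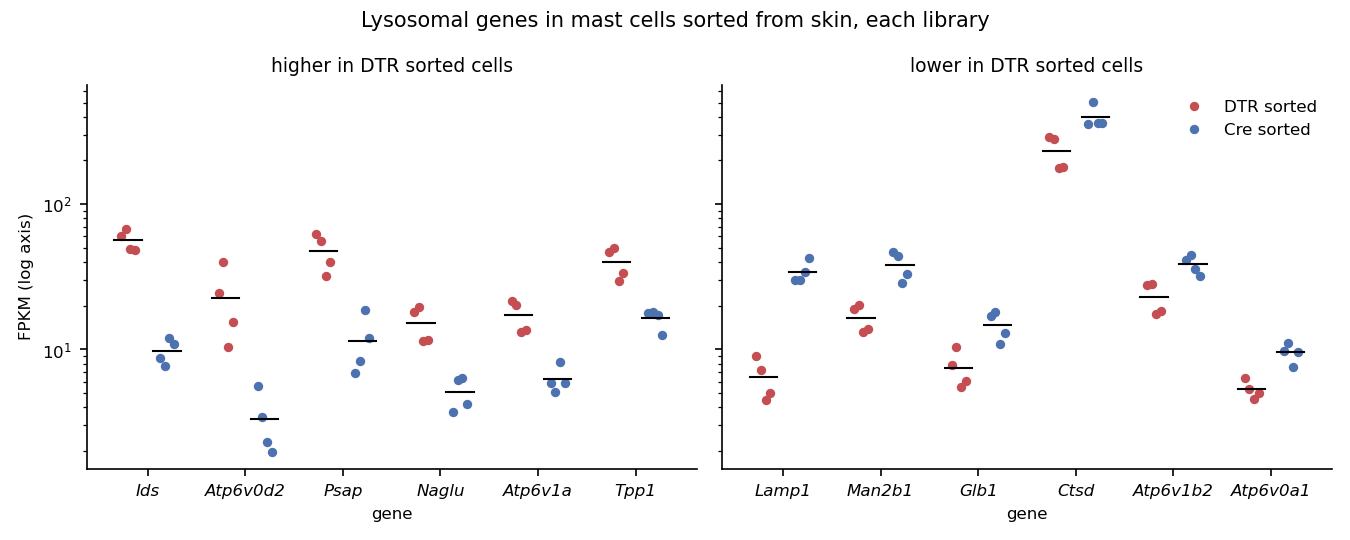
FPKM (log axis) of the 6 members with the largest called rise and the 6 with the largest called fall in DTR sorted (red) against Cre sorted (blue) mast cells; points are libraries and bars are means of 4. Ids sits at 48.5 to 67.1 FPKM in DTR cells and 7.75 to 11.9 FPKM in Cre cells, Lamp1 at 4.47 to 9.08 and 30.1 to 42.5 FPKM, and the DTR libraries split into 2 pairs in most genes.

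Between the sorted groups, the 5 basophil marker genes summed to 111 to 192 FPKM in DTR cells, most of it Cd200r3, and to 529 to 836 FPKM in Cre cells. The 10 mast cell markers summed to 18076 to 29694 FPKM in DTR cells and to 9851 to 14643 FPKM in Cre cells. They did not all rise: by limma 5 were higher in DTR cells, 2 lower and 3 did not pass. Red blood cell genes summed to at most 0.382 FPKM in DTR cells, and to 664 FPKM in Cre replicate 2 and at most 1.98 FPKM in the other Cre libraries. Fibroblast genes were highest in Cre replicate 4, at 239 FPKM, and in DTR replicate 3, at 122 FPKM. Leaving out single libraries gave 18 to 28 members past the test, against 26 with all of them, and the counts over all genes are not given beside these. DTR replicates 1 and 2 as the group gave 24 higher and 5 lower members, and replicates 3 and 4 gave 7 higher and 12 lower. With replicates 1 and 2, the lower calls of Atp6v1b2, Ctsd, Glb1 and Tfeb were lost (adjusted p = 0.0805, 0.0813, 0.0747 and 0.120). With replicates 3 and 4, Atp6v1c1 and Tfeb were lost (adjusted p = 0.133 and 0.0667), and Cd63 passed as lower at -0.71 (adjusted p = 0.0178). Setting every library to an equal total FPKM gave 29 higher and 9 lower. The settings with pairs of DTR libraries and with equal totals were chosen after the data were seen. Counts over all genes by direction were not made under these settings, so the splits cannot be read as particular to the members. Over all 19 alternatives, calls were lost in 10 for Ctsb, 9 for Atp6v0a2, 8 for Atp6v1c1, 7 for Asah1, and 6 for Hexa and for Lipa. Ctsd lost its call in 5, as given above, Atp6v1b2 in 4, and Manba and Hgsnat in 3 each. Atp6v0a1, Ctsc and Glb1 lost theirs in 1 each. For Arsa it was 5 of 18 alternatives and for Tfeb 3 of 18.

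Related genes outside the members, from lists of the same pathway, were counted in the same comparison, where 18.9% of all genes were higher and 16.9% lower. Of 19 tested further lysosomal hydrolases 8 were higher and 1 lower, of 18 further lysosomal membrane genes 7 were higher and 1 lower, and of 13 genes of mannose 6-phosphate tagging and sorting 6 were higher and 1 lower. Of 16 nutrient sensing genes 5 were higher and 1 lower, of 24 autophagy genes 4 were higher and 2 lower, and of 8 pump partners 2 were higher and 3 lower; the autophagy share called higher was near that of all genes. Gnptab, which makes the mannose 6-phosphate tag, had 14.5 ± 3.9 FPKM in DTR sorted cells, against 4.42 ± 0.467 FPKM in Cre sorted cells (log2 change 1.48, limma adjusted p = 6.14e-05). Cln3, a lysosomal membrane gene of neuronal ceroid lipofuscinosis, was lower, at -1.52. Dmxl2, a partner in pump assembly, had 0.364 ± 0.0796 FPKM in DTR sorted cells, against 11.4 ± 2.77 FPKM in Cre sorted cells. Tcirg1, which encodes the a3 subunit of the pump without carrying its name, was lower as well (-1.24).

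Few members passed in whole skin. Of 53 tested, 2 were higher and 2 lower in DTR skin against Cre skin, below the 7.38% higher and 6.25% lower of all 12607 genes. Arsa, which removes sulfate from sulfatides, had 6.81, 6.6, 6.84 and 7.82 FPKM in DTR skin, against 5.4, 5.94, 5.38 and 5.41 FPKM in Cre skin (0.29 ± 0.06, adjusted p = 0.0129). Ctsl had 140.0, 133, 132 and 133 FPKM in DTR skin, against 153, 152, 156 and 171 FPKM in Cre skin (-0.23 ± 0.05, adjusted p = 0.0135). Neither pair of groups overlapped. Fuca1, an alpha-fucosidase, had 47.7, 49, 50.1 and 46.5 FPKM in DTR skin, against 53.4, 52.9, 52.4 and 59.1 FPKM in Cre skin (-0.17 ± 0.05, adjusted p = 0.0414), and its call was lost in 12 of the 17 alternatives. Idua was the other higher gene, at 2.63 ± 0.118 FPKM in DTR skin and 2.04 ± 0.121 FPKM in Cre skin (0.25 ± 0.06, adjusted p = 0.0185).

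By limma 0 of the 17 tested pump genes, 6 membrane genes and 2 transcription factor genes passed in skin, and 6 pump genes and no membrane or transcription factor gene had an unadjusted p under 0.05. After centring 1 pump gene, Atp6v0e2, passed as lower, beside 724 higher and 1029 lower of all genes. Lamp1 had 188, 192, 191 and 183 FPKM in DTR skin and 195, 198, 196 and 210.4 FPKM in Cre skin (-0.08 ± 0.04, adjusted p = 0.164). Cd63 had 185, 179.9, 193 and 196 FPKM in DTR skin and 194, 179.6, 213 and 211 FPKM in Cre skin (-0.08 ± 0.06, adjusted p = 0.372). In the same libraries the mast cell markers summed to 199 to 243 FPKM in DTR skin, against 67.3 to 88.9 FPKM in Cre skin, and skeletal muscle markers, 5 of 5 lower, to 546 to 745 FPKM in DTR skin, against 1009 to 2369 FPKM in Cre skin. Adipocyte markers, 5 of 5 lower, summed to 192 to 233 FPKM in DTR skin, against 442 to 549 FPKM in Cre skin. The part of these markers in the results was not tested. Atp6v0d2, high in mast cells, was 0.516 to 0.694 FPKM in DTR skin and 0.340 to 0.451 FPKM in Cre skin. Of the further lists, 1 of 23 hydrolases was higher and 1 lower, 1 of 18 membrane genes was higher and 1 lower, and 3 of 15 sorting genes were higher and 0 lower, beside the 7.38% and 6.25% of all genes.

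The difference between the 2 tissues was tested directly, as the DTR over Cre change in sorted cells minus that in skin. Of 56 members tested, the difference was called positive for 15 and negative for 9, against 14.4% and 13.3% of 13153 genes. A negative difference is a more negative change in sorted cells than in skin, not a smaller one. Median centring gave 22 and 11, beside 2440 and 2030 of all genes, and quantile normalization gave 25 and 10. With DTR sorted replicates 1 and 2 as the group the split was 26 and 8, and with replicates 3 and 4 it was 12 and 14. Equal total FPKM gave 27 and 8. These settings were again chosen after the data were seen. Counts over all genes by direction were not made under them or under quantile normalization. The largest differences were 2.44 ± 0.19 for Ids, 2.17 ± 0.43 for Atp6v0d2 and 2.02 ± 0.34 for Psap. Atp6v1a, Naglu and Ctsc followed at 1.33, 1.24 and 1.10. In the other direction were Lamp1 at -2.19 ± 0.23, Man2b1 at -1.20 and Glb1 at -0.89. Limma adjusted p was 7.42e-08 for Ids and 3.09e-06 for Lamp1. Atp6v0d2 was under 1 FPKM in every DTR and Cre skin library and passed the filter through sorted cells alone. Its change in skin is held small at that level, so its difference largely restates its sorted change.

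β-ala on the ear moved no member past the test. Of 54 tested, 0 were higher and 0 lower in β-ala skin against PBS skin by limma, and 2, Mcoln1 and Tfe3, had an unadjusted p under 0.05, both lower. Over all 12709 genes, 0.0157% were higher and 0.197% lower. Every alternative run also gave 0. Lamp1 had 235, 246, 237 and 243 FPKM in β-ala skin and 247, 245, 269.8 and 248 FPKM in PBS skin. Ctsd had 523, 590.2, 442 and 507 FPKM in β-ala skin and 529.6, 518, 542 and 558 FPKM in PBS skin, and Hexa had 29.4, 20.6, 21.5 and 23.5 FPKM in β-ala skin and 24.6, 28.7, 22.6 and 23.2 FPKM in PBS skin. All 3 sets of libraries overlapped. Cd63 had 180.4, 153, 161 and 157 FPKM in β-ala skin and 170.1, 171, 172 and 175 FPKM in PBS skin, which also overlapped.

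Tfeb and Tfe3 averaged 9.16 ± 1.06 and 13.5 ± 1.12 FPKM in β-ala skin and 8.88 ± 0.950 and 15.4 ± 0.909 FPKM in PBS skin. Atp6v0d2 averaged 0.563 ± 0.0977 FPKM in β-ala skin and 0.485 ± 0.111 FPKM in PBS skin. The members' median log2 change was -0.04, the same as that of all genes to 2 decimals. In these libraries the 10 mast cell markers summed to 4.21 to 7.42 FPKM in β-ala skin, against 211 to 260.1 FPKM in PBS skin, and the part of this gap in the members' values was not tested.

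Glutamate for 6 h moved members in both directions. Of 49 tested, 14 were higher and 20 lower in glutamate than in vehicle, where 16.9% of all 8297 genes were higher and 62.4% lower. The median gene changed by -0.33 on the log2 scale. Centring on it gave 31 higher and 11 lower members, beside 3703 higher and 2611 lower of all genes. Quantile normalization gave 23 higher and 17 lower members, and counts over all genes by direction were not made under it. The 14 higher members kept that call under centring and 11 of the 20 lower ones did. Of all genes, the 1403 higher ones kept it too, and 2611 of the 5177 lower ones did. Proteases were 5 higher and 0 lower of 7, and hydrolases together 10 higher and 8 lower of 26, while pump genes were 2 higher and 8 lower of 16. Summed per library, the hydrolases had 2964 ± 58.4 FPKM in glutamate, against 2010.2 ± 87.3 FPKM in vehicle. Most of this gap was Ctsd, which averaged 1935 ± 41.9 FPKM in glutamate and 1087 ± 53 FPKM in vehicle, and the other 27 hydrolases summed to 1029.9 ± 17.4 FPKM in glutamate, against 924 ± 34.8 FPKM in vehicle. Pump genes other than the pseudogene had 1739.7 ± 34.8 FPKM in glutamate, against 1876 ± 51 FPKM in vehicle, and membrane genes 2789.8 ± 99.1 and 3294 ± 67.2 FPKM in the same 2 groups.

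Lamp1 rose most. It had 198, 196, 209 and 180.3 FPKM in glutamate, against 68.3, 105, 101 and 102 FPKM in vehicle (1.06 ± 0.11, adjusted p = 1.05e-06, 1.39 relative to the median gene). Vehicle replicate 1 was the lowest, and the groups did not overlap. Ctsd had 1951, 1973, 1939 and 1875 FPKM in glutamate, against 1153, 1102, 1029 and 1064 FPKM in vehicle (0.83 ± 0.04, adjusted p = 3.70e-10, 1.16 relative). Ppt1, which strips palmitate from proteins, had 46.3, 47.4, 48.6 and 45.9 FPKM in glutamate, against 26.8, 29.1, 26.7 and 27 FPKM in vehicle (0.76 ± 0.04, adjusted p = 2.53e-09, 1.09 relative). Both were higher in each glutamate library than in any vehicle library.

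Gusb, beta-glucuronidase, had 26.1, 27.9, 27.3 and 23.9 FPKM in glutamate, against 18.1, 17.2, 15.9 and 15.2 FPKM in vehicle (0.63 ± 0.06, adjusted p = 6.50e-07, 0.96 relative). Npc2, a soluble cholesterol carrier of the lysosome, had 108, 107, 109 and 111 FPKM in glutamate, against 74.9, 75.2, 76.9 and 78.2 FPKM in vehicle (0.50 ± 0.03, adjusted p = 1.01e-08, 0.83 relative). Ctsa, a carboxypeptidase that protects beta-galactosidase and neuraminidase, had 41.7, 39.95, 39.5 and 36 FPKM in glutamate, against 29.9, 29.4, 25.9 and 26.6 FPKM in vehicle (0.48 ± 0.06, adjusted p = 4.40e-06, 0.81 relative). In none of the 3, picked for their large called change, did the groups overlap. Ctsb, Psap, Ctsc, Glb1, Atp6v1a, Tpp1, Lamp2 and Atp6v1g1 also passed as higher, at 0.12 to 0.47.

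Pump, membrane and heparan sulfate genes were among the lower members. Atp6v1d, the D subunit of the central shaft of V1, had 31.6, 33.5, 32 and 30.6 FPKM in glutamate, against 84.6, 84.3, 79.4 and 86.2 FPKM in vehicle (-1.36 ± 0.04, adjusted p = 1.67e-11, -1.03 relative). Atp6v1c1 had 24.1, 25.5, 26.1 and 22.7 FPKM in glutamate, against 42.3, 44.1, 44 and 45.1 FPKM in vehicle (-0.81 ± 0.05, adjusted p = 4.92e-09, -0.48 relative). Atp6v0a2 had 2.61, 2.66, 2.86 and 2.65 FPKM in glutamate, against 8.82, 7.77, 7.13 and 7.84 FPKM in vehicle (-1.26 ± 0.07, adjusted p = 2.93e-09, -0.94 relative). All 3 pump genes were lower in each glutamate library than in any vehicle library. Other pump genes stayed near vehicle, such as the ring gene Atp6v0c at 257 ± 5.11 FPKM in glutamate and 252 ± 4.34 FPKM in vehicle (0.03 ± 0.03, adjusted p = 0.410), or Atp6v1b2 (0.02).

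Mcoln1 had 3.33, 3.31, 2.54 and 2.31 FPKM in glutamate, against 8.49, 8.76, 8.34 and 7.97 FPKM in vehicle (-1.29 ± 0.09, adjusted p = 2.57e-08, -0.96 relative). Sgsh had 5.72, 4.94, 5.2 and 4.45 FPKM in glutamate, against 10.3, 9.13, 9.73 and 8.98 FPKM in vehicle (-0.80 ± 0.07, adjusted p = 3.49e-07), and Hgsnat had 11.7, 13.6, 13.8 and 12.4 FPKM in glutamate, against 23.7, 23.3, 21.5 and 23.3 FPKM in vehicle (-0.79 ± 0.06, adjusted p = 4.55e-08). The groups of these 3 genes were separate as well. Tfe3 had 3.39, 3.31, 2.91 and 2.76 FPKM in glutamate, against 6.55, 5.93, 4.95 and 5.91 FPKM in vehicle (-0.74 ± 0.08, adjusted p = 2.91e-06, -0.41 relative). Tfeb was not tested, since it had 1 FPKM or more in too few libraries, with 0.0557, 0.356, 0.302 and 0.285 FPKM in glutamate and 0.508, 0.634, 0.441 and 0.793 FPKM in vehicle. Gaa, the acid glucosidase of glycogen breakdown, and Lipa, the acid lipase, were lower at -0.70 and -0.54.

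For members with smaller falls the direction hung on the scaling. Cd63 had 2366, 2439, 2575 and 2536 FPKM in glutamate, against 3025, 3041, 3107 and 3154 FPKM in vehicle (-0.31 ± 0.03, adjusted p = 1.20e-06), and was 0.10 higher after centring, where it no longer passed. Atp6v0d2 had 57.7, 60.5, 61 and 60.5 FPKM in glutamate, against 77, 82.6, 77.9 and 78.2 FPKM in vehicle (-0.39 ± 0.04, adjusted p = 3.75e-07), and was 0.02 higher after centring. Atp6v0b and Naglu were lower as deposited, at -0.29 and -0.20, and passed as higher after centring. Hexa had 142, 149.9, 142 and 143 FPKM in glutamate and 151, 147, 136 and 145 FPKM in vehicle, did not pass as deposited (adjusted p = 0.952), and passed as higher after centring, at 0.41.

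**Figure D4:**
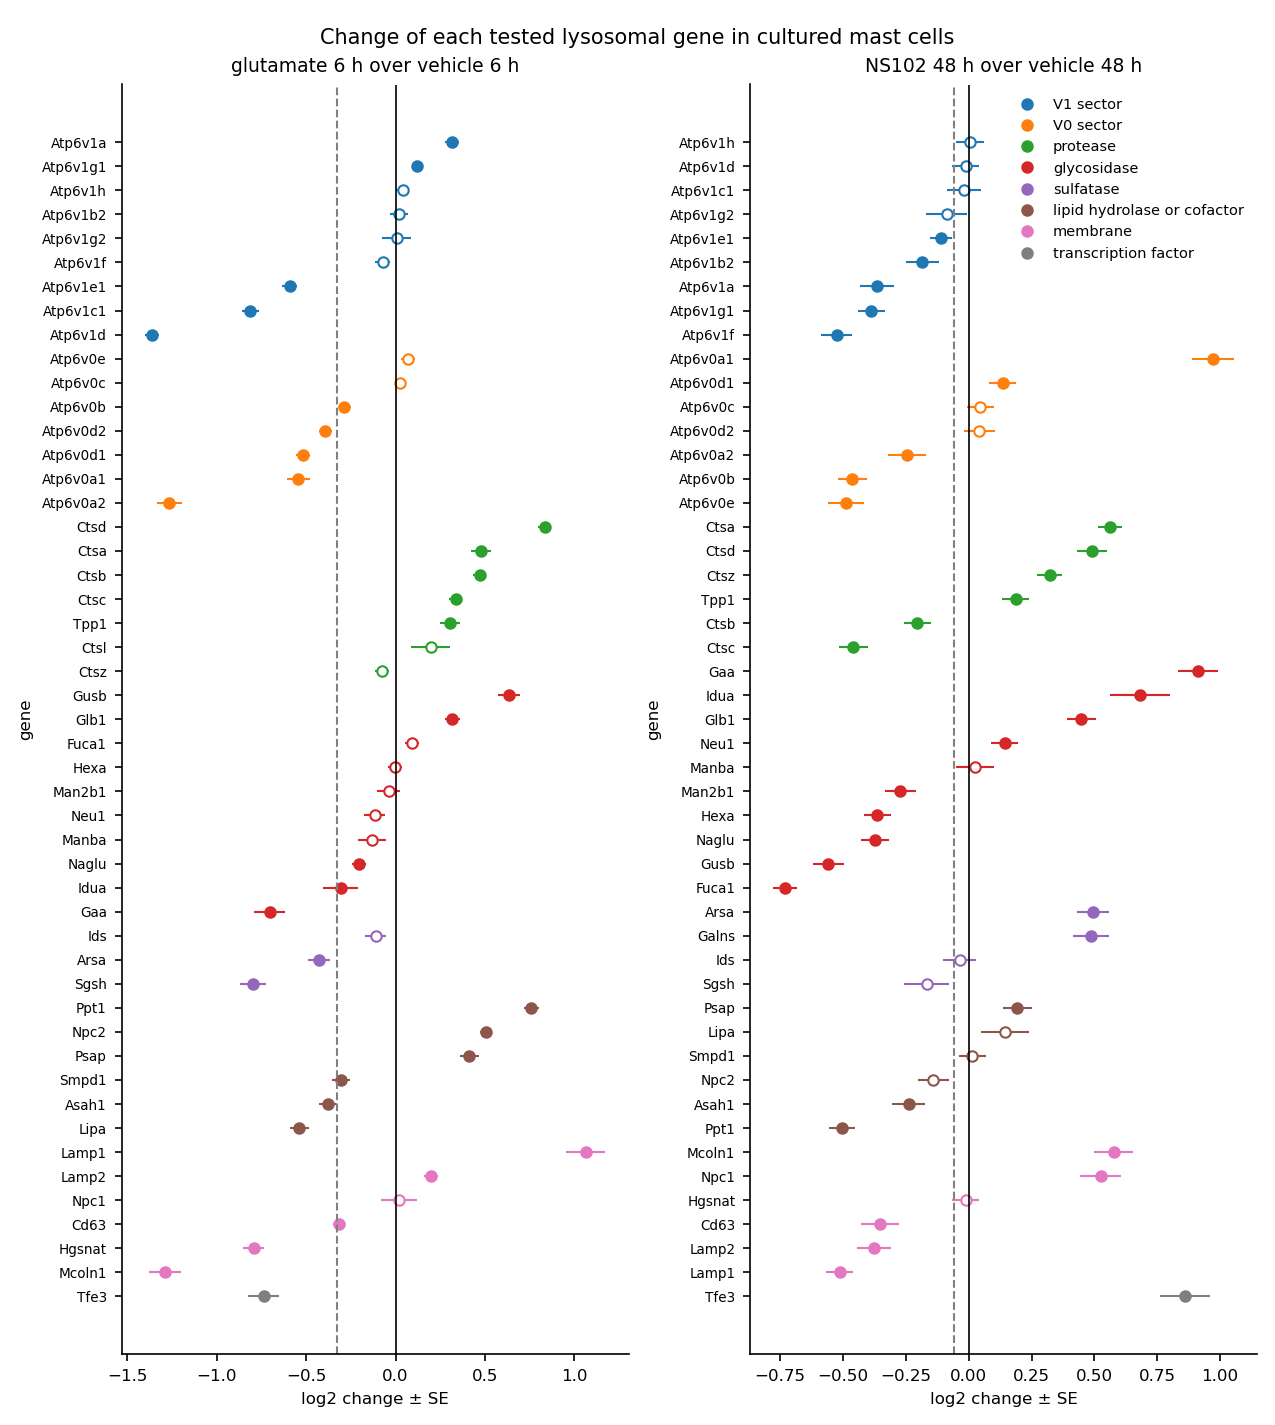
Log2 change (x axis, bars are SE) of each tested member (y axis, coloured by class) in glutamate over vehicle at 6 h (left) and NS102 over vehicle at 48 h (right); filled points passed limma, the solid line is no change and the dashed line is the median of all genes tested, at -0.33 and -0.06. Proteases lie right of the dashed line with glutamate, from -0.07 for Ctsz to 0.83 for Ctsd, while no V1 gene passed as higher with NS102.

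Related genes were counted with glutamate too, beside the 16.9% higher and 62.4% lower of all genes. Of 17 tested further lysosomal membrane genes 0 were higher by limma and 14 lower, of 13 genes of mannose 6-phosphate tagging and sorting 2 were higher and 11 lower, and of 24 autophagy genes 1 was higher and 15 lower. The share of autophagy genes called lower was near that of all genes. Their median changes were -0.62, -0.37 and -0.28, beside -0.33 over all genes. Of 18 further hydrolases 4 were higher and 10 lower, and of 14 nutrient sensing genes 1 was higher and 9 lower. Pump partners outside the name rule split evenly, with 2 higher and 2 lower of 7 tested. Tmem192 had 18.6 ± 0.412 FPKM in glutamate, against 60.6 ± 3.63 FPKM in vehicle (log2 change -1.65, limma adjusted p = 1.08e-11). Flcn, folliculin, which acts on RagC in lysosomal nutrient sensing, had 4.31 ± 0.347 FPKM in glutamate, against 16.1 ± 1.27 FPKM in vehicle (-1.68). Atp6ap1 and Atp6ap2, accessory subunits of the pump outside the name rule, were higher: Atp6ap1 had 229.7 ± 10.3 FPKM in glutamate, against 104 ± 2.02 FPKM in vehicle (1.14), and Atp6ap2 changed by 0.69. Gm2a, the GM2 activator that works with beta-hexosaminidase, had 375 ± 9.36 FPKM in glutamate, against 229.9 ± 3.78 FPKM in vehicle (0.70).

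NS102 for 48 h also moved members in both directions. Of 49 tested, 16 were higher and 20 lower in NS102 than in 48 h vehicle, near the 30.8% higher and 39.7% lower of all 8373 genes. Quantile normalization gave 26 higher and 14 lower members, and counts over all genes by direction were not made under it. Pump genes were 2 higher and 8 lower of 16, and hydrolases 11 higher and 9 lower of 26. Of the proteases 4 were higher and 2 lower, and of the glycosidases 4 were higher and 5 lower. The hydrolases summed to 3481 ± 93.8 FPKM in NS102, against 2869.6 ± 137 FPKM in vehicle. Ctsd averaged 2342 ± 63.7 FPKM in NS102 and 1667 ± 86.7 FPKM in vehicle, a wider gap than that of the sum. The other 27 summed to 1139 ± 35.3 FPKM in NS102, against 1202 ± 52.4 FPKM in vehicle, and their ranges overlapped. Pump genes other than the pseudogene summed to 1722 ± 98.6 FPKM in NS102, against 2177 ± 56.8 FPKM in vehicle. Ctsb and Atp6v1e1 were called lower, at -0.21 and -0.11, but were 0.00552 and 0.109 higher under quantile normalization, and the Atp6v1e1 call was lost in 9 of 17 alternatives.

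Atp6v0a1 rose most, with 7.77, 7.46, 8.6 and 8.96 FPKM in NS102, against 4.33, 3.52, 3.44 and 3.48 FPKM in vehicle (0.97 ± 0.08, adjusted p = 8.96e-07). Gaa had 17, 16.7, 20 and 17.1 FPKM in NS102, against 10.1, 8.44, 8.12 and 9.16 FPKM in vehicle (0.91 ± 0.08, adjusted p = 8.69e-07), and Tfe3 had 6.26, 5.51, 7.39 and 7.11 FPKM in NS102, against 3.54, 3.16, 2.57 and 3.37 FPKM in vehicle (0.86 ± 0.10, adjusted p = 9.66e-06). All 3 were higher in each NS102 library than in any vehicle library. Mcoln1 had 12.1, 12.6, 13.4 and 15.2 FPKM in NS102, against 9.29, 8.22, 8.92 and 7.98 FPKM in vehicle (0.58 ± 0.08, adjusted p = 3.08e-05). Ctsa had 90.7, 87.4, 87.8 and 85.5 FPKM in NS102, against 63, 56.7, 58.9 and 58 FPKM in vehicle (0.56 ± 0.05, adjusted p = 9.79e-07), and Arsa had 11.2, 10.9, 10.5 and 10.2 FPKM in NS102, against 8.05, 6.96, 7.18 and 7.11 FPKM in vehicle (0.49 ± 0.06, adjusted p = 2.54e-05). These groups were also separate. Ctsd had 2425, 2356, 2307 and 2279.8 FPKM in NS102, against 1791, 1619, 1660.4 and 1598 FPKM in vehicle (0.49 ± 0.06, adjusted p = 1.49e-05), and Glb1 averaged 124 ± 4.22 FPKM in NS102, against 91 ± 6.37 FPKM in vehicle (0.45 ± 0.06, adjusted p = 1.80e-05).

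Fuca1 fell most, with 44.3, 42.4, 42.2 and 41.1 FPKM in NS102, against 74.6, 69.6, 70.5 and 69.7 FPKM in vehicle (-0.73 ± 0.05, adjusted p = 1.05e-07). Gusb had 15.4, 14.9, 16.7 and 15.8 FPKM in NS102, against 25.1, 22.6, 25.1 and 21.7 FPKM in vehicle (-0.56 ± 0.06, adjusted p = 8.31e-06), and Ppt1 had 34.2, 35.5, 32.7 and 32.2 FPKM in NS102, against 49.3, 48.9, 49.4 and 45.1 FPKM in vehicle (-0.50 ± 0.05, adjusted p = 4.17e-06). Each was lower in all NS102 libraries. Lamp1 had 147, 149, 144 and 134 FPKM in NS102, against 195, 207, 219.9 and 198 FPKM in vehicle (-0.51 ± 0.05, adjusted p = 4.62e-06). The small pump subunits Atp6v1f and Atp6v0e had 289, 293, 249.8 and 256 FPKM and 512, 517, 425 and 428 FPKM in NS102, against 378, 389.7, 398 and 398 FPKM and 659, 661, 676 and 633 FPKM in vehicle (-0.52 and -0.49). Both passed as lower.

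Cd63 had 3266, 3233, 2897 and 2832 FPKM in NS102, against 3793, 4043, 4111 and 3656 FPKM in vehicle (-0.35 ± 0.07, adjusted p = 0.00104). Hexa had 144, 144, 137 and 133 FPKM in NS102, against 185, 188, 182 and 165 FPKM in vehicle (-0.36 ± 0.05, adjusted p = 7.08e-05). Both passed as lower, without overlap. Atp6v0d2 had 13.7, 13.9, 14.6 and 15.3 FPKM in NS102 and 14.8, 13.2, 14.4 and 13.4 FPKM in vehicle, and did not pass (0.04 ± 0.06, adjusted p = 0.555). Tfeb was again too low to be tested, with 0.682, 0.731, 1.35 and 1.1 FPKM in NS102 and 0.658, 0.586, 0.540 and 0.655 FPKM in vehicle.

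Outside the members, 4 of 16 further hydrolases were higher and 8 lower with NS102, 2 of 16 further membrane genes were higher and 7 lower, and 4 of 13 sorting genes were higher and 6 lower. Also 11 of 24 autophagy genes were higher and 5 lower, and 1 of 13 nutrient sensing genes was higher and 9 lower. Pump partners were 2 higher and 4 lower of 7 tested. Of all genes 30.8% were higher and 39.7% lower. Sqstm1, an autophagy receptor, had 591 ± 22 FPKM in NS102, against 399 ± 16.4 FPKM in vehicle (0.57). Lamtor4, part of the Ragulator complex on the lysosome surface, had 52 ± 4.3 FPKM in NS102, against 117 ± 7.89 FPKM in vehicle (-1.16). Limma adjusted p was 1.56e-06 for Sqstm1 and 4.73e-08 for Lamtor4.

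**Figure D5:**
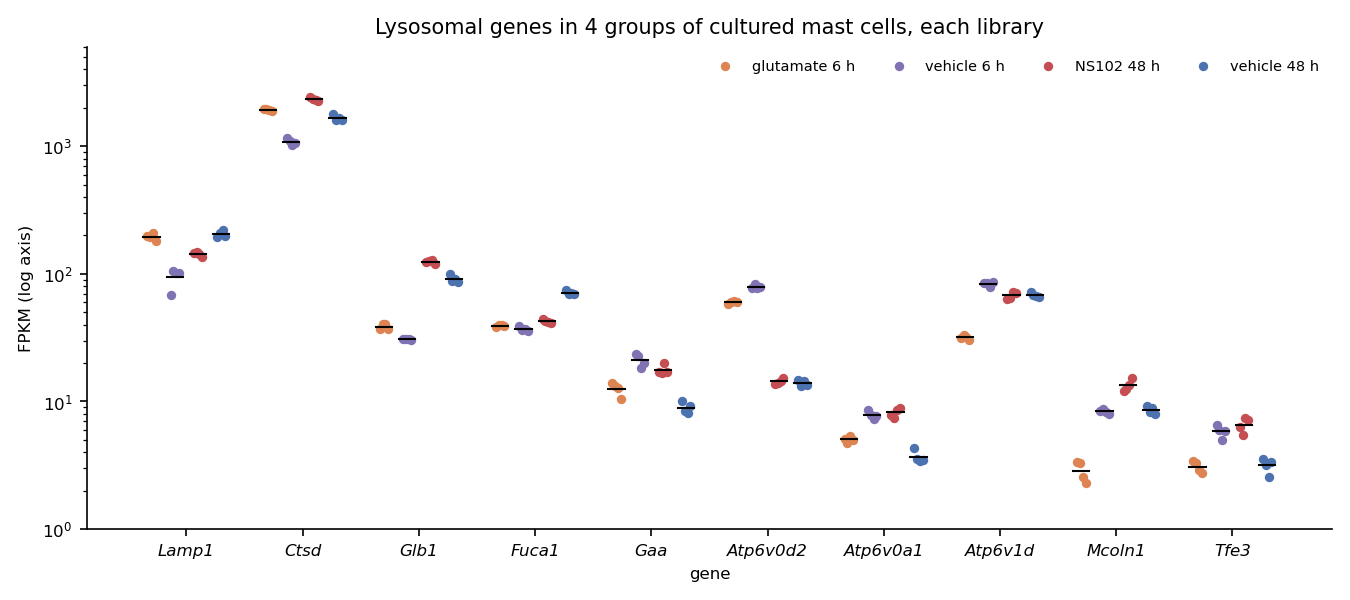
FPKM (log axis) of 10 members in cultured mast cells with glutamate 6 h (orange), vehicle 6 h (purple), NS102 48 h (red) and vehicle 48 h (blue); points are libraries and bars are means of 4. Atp6v0d2 sits at 13.2 to 14.8 FPKM in 48 h vehicle and 77 to 82.6 FPKM in 6 h vehicle, and Lamp1 is at 180.3 to 209 FPKM in glutamate and 68.3 to 105 FPKM in its vehicle.

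The 2 vehicle groups were themselves far apart. In 48 h vehicle cells against 6 h vehicle cells, 26 of 49 tested members were higher and 19 lower, against 34.2% higher and 37.7% lower of 8467 genes. Time in culture and the buffer of the 6 h cells differ together and cannot be told apart, and this comparison shares each vehicle group with one of the comparisons above. Hydrolases were 17 higher and 8 lower of 26, and pump genes 6 higher and 8 lower of 16. Atp6v0d2 had 14.8, 13.2, 14.4 and 13.4 FPKM at 48 h, against 77, 82.6, 77.9 and 78.2 FPKM at 6 h (-2.42 ± 0.05, adjusted p = 5.39e-14). Glb1 had 100.1, 87.6, 90.5 and 85.9 FPKM at 48 h, against 30.9, 31.1, 30.9 and 30.4 FPKM at 6 h (1.53 ± 0.05, adjusted p = 5.46e-12). These were the largest fall and rise among the members.

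Man2b1 had 83.8, 69.4, 72.5 and 71.8 FPKM at 48 h, against 37.6, 37, 32.4 and 34.1 FPKM at 6 h (1.05 ± 0.06, adjusted p = 2.84e-09), and Ctsc had 109, 109, 108 and 99.1 FPKM at 48 h, against 54.5, 55.9, 52.8 and 52.1 FPKM at 6 h (0.97 ± 0.05, adjusted p = 2.21e-10). Lamp1, Ctsa and Fuca1 were also higher, at 1.13, 1.06 and 0.93. Gaa had 10.1, 8.44, 8.12 and 9.16 FPKM at 48 h, against 23.5, 22.6, 18.4 and 20.2 FPKM at 6 h (-1.15 ± 0.08, adjusted p = 1.33e-08). With it Atp6v0a1, Sgsh, Tfe3 and Atp6v1h were lower, at -0.91, -0.79, -0.72 and -0.56. Of 18 further hydrolases 9 were higher and 6 lower, of 17 further membrane genes 4 were higher and 10 lower, and of 24 autophagy genes 7 were higher and 15 lower, beside the 34.2% and 37.7% of all genes. Cd68 and Laptm5, further lysosomal membrane genes, were lower at 48 h by limma as well, at -2.29 and -1.25.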

How the data were processed

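RNA was extracted with a Qiagen RNeasy kit and sequenced on an Illumina HiSeq, per the labels' protocols. Reads were aligned with STAR and quantified with Cufflinks on mm9, per the submitters' processing notes; versions are not given in the sources used here. The authors deposited a table of 23812 rows and 40 libraries whose header names no unit. The authors' values were taken as deposited FPKM, made by Cufflinks, from that tool's output unit and the values' range. FPKM are relative to all mapped fragments, so a few abundant transcripts can shift all others.

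Differences were tested with limma 3.58.1 (R 4.3.3, trended empirical Bayes) on log2(FPKM + 1), for genes that reached 1 FPKM in 4 or more of a comparison's 8 libraries (16 for the interaction), with Benjamini-Hochberg adjustment over all genes tested and a threshold of 0.05. Tables were handled in Python 3.11.15. The test was checked on simulated data. Whole reads could not be recovered: in 30 pairs of libraries, 14.8% to 46.2% of low values stood in ratios of whole reads up to 3 within 1%. Depth is therefore unknown and no counting interval is given.

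The members and gene lists were chosen with earlier results of these data known. The genes named in each comparison were up to 6 in each direction with the largest called change among those averaging 5 FPKM or more in the higher group, plus Lamp1, Cd63, Ctsd, Hexa, Tfeb, Tfe3 and Atp6v0d2; other genes were named after their values were seen. Alternatives were other pseudocounts, filters, scalings, spread models, a replicate block and leaving out each library. Promoter windows came from RefSeq (GRCm38.p6) and were used by gene symbol, since the deposited table is on mm9. Results for a few genes of the related lists are not reported here.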

Additional observations from a re-analysis of the deposited data

Results flagged for a closer look

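Single libraries stood apart from the other 3 of their group in 16 of 159 groups of values examined (10.1%), where chance gives about 1 in 20. In skin, Arsa was 5.94 FPKM in Cre replicate 2, Fuca1 was 59.1 FPKM and Lamp1 was 210 FPKM in Cre replicate 4, Man2b1 was 17.2 FPKM in Cre replicate 3, Ctsl was 140 FPKM in DTR replicate 1, and Lamp1 was 270 FPKM in PBS replicate 3. In Cre sorted cells, Ctsd was 504 FPKM in replicate 2, the library with red blood cell genes, and Ctsl was 20.9 FPKM and Tpp1 12.5 FPKM in replicate 4, the library with the most fibroblast genes. In cultured cells, Atp6v0d2 was 57.7 FPKM in glutamate replicate 1 and Hexa was 150 FPKM in glutamate replicate 2. Gaa was 20 FPKM in NS102 replicate 3. Among vehicle libraries, Lamp1 was 68.3 FPKM in 6 h replicate 1, Ppt1 was 29.1 FPKM in 6 h replicate 2, Atp6v0a1 was 4.33 FPKM in 48 h replicate 1 and Ppt1 was 45.1 FPKM in 48 h replicate 4.

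For 14 of the named genes the DTR over Cre log2 change differed between sorted cells and skin by the limma interaction. The difference, sorted minus skin, was 2.44 for Ids, 2.17 for Atp6v0d2, 2.02 for Psap, 1.33 for Atp6v1a, 1.24 for Naglu, 1.10 for Ctsc and 0.65 for Tfe3. It was -2.19 for Lamp1, -1.20 for Man2b1, -0.89 for Glb1, -0.81 for Atp6v1b2, -0.77 for Ctsd, -0.76 for Atp6v0a1 and -0.72 for Tfeb. The value of Atp6v0d2, under 1 FPKM in every skin library, largely restates its sorted change. The calls of Tfeb and Tfe3 were lost in 18 and 15 of 28 alternatives, with the highest adjusted p at 0.129 and 0.189, and that of Ctsd was lost in 1, quantile normalization. Leaving out each of the 16 libraries in turn ended the Tfeb call in 12 cases and the Tfe3 call in 12, with the highest adjusted p at 0.0884 without Cre skin replicate 2 and 0.0837 without DTR sorted replicate 1.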

How the results depend on the processing

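Counts of members past limma stayed within 1.5 times the reported count except in 2 settings: DTR skin gave 1, against 4, when the spread was shared over more groups, and DTR sorted cells gave 40, against 26, under quantile normalization. Leaving out 1 library gave 3 to 5 in DTR skin, 0 to 0 in β-ala skin, 18 to 28 in DTR sorted cells, 34 to 36 with glutamate, 32 to 35 with NS102, 42 to 45 for vehicle 48 h over 6 h, 47 to 51 for Cre sorted cells over skin, 47 to 50 over 48 h vehicle cells and 20 to 29 for the interaction. Counts over all genes under these settings are not given here, so the shifts cannot be read as particular to the members.

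The labels' replicate numbers did not consistently pair the samples in the comparisons checked. Same-numbered libraries had correlated deviations of -0.247 to 0.463, and libraries correlated best with their own number in 1 to 3 of 4 cases. The 3 of 4 was in DTR skin against Cre skin. Skin and sorted libraries of the same line, which the interaction treats as independent, were not checked, so pairing is not excluded. With the replicate block the counts were 3 in DTR skin, 0 in β-ala skin, 26 in DTR sorted cells, 35 with glutamate, 33 with NS102, 45 for vehicle 48 h over 6 h, 49 for Cre sorted cells over skin, 48 over 48 h vehicle cells and 23 for the interaction. These too are counts of members alone, without the count over all genes.

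Some directions turned, and the cause was not tested. Under quantile normalization Lamp1 was 0.00976, Cd63 0.0195 and Ctsd 0.0598 in DTR skin, Ctsd 0.0578 and Cd63 0.287 in DTR sorted cells, Hexa 0.0157 with glutamate, Tfeb 0.0889 in Cre sorted cells over skin, and Ctsd 0.0252 and Cd63 0.165 in the interaction. Under median centring Cd63 was 0.0979, Hexa 0.410 and Atp6v0d2 0.0204 with glutamate, and Tfeb 0.122 in Cre sorted cells over skin. With DTR sorted replicates 1 and 2 as the group, Cd63 was 0.0226 in sorted cells and 0.102 in the interaction. Without single libraries, Ctsd ranged over -0.0388 to 0.131 in Cre sorted cells over skin, -0.0390 to 0.0182 in DTR skin and -0.132 to 0.00664 in β-ala skin, Hexa over -0.0314 to 0.0169 with glutamate and -0.169 to 0.00604 in β-ala skin, Tfe3 over -0.0670 to 0.00718 in DTR skin, and Tfeb over -0.0123 to 0.103 in β-ala skin. These values are log2 changes. With depth unknown, low members such as Tfeb in cultured cells could not be weighed by counting error.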
